A study of Homo sapiens with 24 samples.

Results

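The translation initiation factors were taken as every gene symbol that starts with EIF and a digit in 3 deposited expression tables of human acute myeloid leukaemia cell lines. Of 59 such names, 9 were left out, namely the eIF2 kinases, EIF1AY and names that end in P and a digit, as pseudogene names do. The other 50 were the members, and 3 of those are antisense RNAs that carry a factor's name (EIF1AX-AS1, EIF1B-AS1 and EIF3J-AS1). A member was tested in a table where 3 or more libraries gave it a deposited value of 10 or more, which held for 47 members of 14421 tested genes in MV411, 48 of 13393 in MOLM13 and 49 of 15700 in OCI-AML3. EIF4E1B met this minimum in no table, EIF1AX-AS1 met it in OCI-AML3 but not in MV411 or MOLM13, and EIF4E3 met it in MOLM13 and OCI-AML3 but not in MV411. The name covers more than initiation. EIF4A3 is best known as a helicase of the exon junction complex, EIF5A acts in elongation and termination, and EIF6 keeps free large ribosomal subunits apart from small ones.

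RNA was measured in 24 libraries of 8 groups, with 3 libraries each. MV411 and MOLM13 are leukaemia lines that carry both a fusion of MLL (KMT2A) and FLT3-ITD, an activating duplication in a receptor tyrosine kinase gene. OCI-AML3 has an NPM1 mutation in place of an MLL fusion. MV411 cells received the combination of 2.5 µM MI-503 for 3 days with 3 nM AC220 for 24 h, AC220 alone, MI-503 alone or DMSO. MOLM13 and OCI-AML3 cells received 2.5 µM MI-503 or DMSO for 4 days. MI-503 blocks the contact between menin and MLL proteins, and AC220 (quizartinib) inhibits FLT3. All groups were liquid cultures of an established line, so each line is 1 genetic background, and the 3 libraries of a group were called biological replicates without a description of how the cultures were separated. P-values therefore measure the spread between these libraries.

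Initiation in eukaryotes begins when eIF2, loaded with GTP and the initiator tRNA, joins the small ribosomal subunit together with eIF1, eIF1A, eIF3 and eIF5. The mRNA is brought in by eIF4F, in which eIF4E binds the cap, eIF4G is the scaffold and eIF4A is the helicase. After the start codon has been found, eIF5 triggers GTP hydrolysis, eIF5B joins the large subunit, and eIF2B reloads eIF2 with GTP. Many mRNAs of the translation apparatus, ribosomal protein mRNAs above all, begin with a cytidine and a run of pyrimidines at the cap (a terminal oligopyrimidine tract), through which mTORC1 and LARP1 control their translation and stability. Several factor genes are also known targets of the transcription factor MYC, which binds the sequence CACGTG.

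The first bases of the transcripts separated the members into a pair of sets, whose values are compared further on. RefSeq starts on GRCh38.p14 were available for 42 of the 50 members, and 9 of these (21.4%) began with C and at least 4 further pyrimidines, counted on the coding strand, against 4.07% of 35116 starts and 5.14% of 27305 genes in the table, a gene being counted if any of its starts matched. Each line gives 10 bases before the annotated start and the first 20 bases of the transcript, 5′ to 3′, with the pyrimidine run from the first transcribed base in capitals.
EIF2A: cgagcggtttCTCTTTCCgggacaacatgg
EIF2D: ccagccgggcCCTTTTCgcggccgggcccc
EIF2S3: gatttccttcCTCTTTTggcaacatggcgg
EIF3D: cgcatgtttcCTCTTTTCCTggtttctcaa
EIF3F: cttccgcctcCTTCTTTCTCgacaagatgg
EIF3K: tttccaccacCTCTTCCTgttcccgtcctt
EIF3M: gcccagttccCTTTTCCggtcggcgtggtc
EIF4A2: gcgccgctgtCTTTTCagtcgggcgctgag
EIF4B: tcatccgggtCTTTTgcgttctctttccct
The windows lie at chr3:150546777-150546806 (plus strand) for EIF2A, chr1:206612446-206612475 (minus strand) for EIF2D, chrX:24054946-24054975 (plus strand) for EIF2S3, chr22:36529147-36529176 (minus strand) for EIF3D, chr11:7987327-7987356 (plus strand) for EIF3F, chr19:38619178-38619207 (plus strand) for EIF3K, chr11:32583821-32583850 (plus strand) for EIF3M, chr3:186783567-186783596 (plus strand) for EIF4A2 and chr12:53006446-53006475 (plus strand) for EIF4B.

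For comparison, 7 members that did not begin this way are shown in the same frame, with only the first transcribed base in capitals. They are EIF4A1, the paralog of EIF4A2, and 6 members with annotated starts that each stood lower with AC220.
EIF4A1: ggcactccgcCctagtttctaaggatcatg
EIF4E: tggagcggttGtgcgatcagatcgatctaa
EIF2S1: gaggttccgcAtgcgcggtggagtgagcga
EIF1AX: gagtcgcggcGccatttgctgccgccgagc
EIF3B: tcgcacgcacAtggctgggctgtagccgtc
EIF3J: ccgccgtgctAactcctcgctagctctccc
EIF5B: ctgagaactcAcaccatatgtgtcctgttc
The windows lie at chr17:7572815-7572844 (plus strand) for EIF4A1, chr4:98929114-98929143 (minus strand) for EIF4E, chr14:67360318-67360347 (plus strand) for EIF2S1, chrX:20141819-20141848 (minus strand) for EIF1AX, chr7:2354817-2354846 (plus strand) for EIF3B, chr15:44537137-44537166 (plus strand) for EIF3J and chr2:99337379-99337408 (plus strand) for EIF5B. EIF4A1 begins with C, but its run of pyrimidines ends before the fifth base. For EIF2S2, EIF3A, EIF3CL, EIF3E, EIF3G, EIF3H, EIF3L and EIF3J-AS1 no start was read here.

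CACGTG, which reads the same on both strands, stood within 250 bases before to 50 after the start in 11 of the 42 members (26.2%), against 7.26% of all starts and 8.77% of all genes. The 11 were EIF1B with its divergent neighbour EIF1B-AS1, EIF2B3, EIF3F, EIF3K, EIF4A3, EIF4B, EIF4E, EIF4G1, EIF4H and EIF5A2. The windows of EIF1B and EIF1B-AS1 overlap, so these 2 are not independent counts. EIF4E, EIF4G1 and EIF5A2 each held it at 2 places, and those of EIF4E are printed with CACGTG in capitals.
EIF4E distal: ctacccatcggcCACGTGaccagtcctttt
EIF4E proximal: ggacatatccgtCACGTGgccagaagctgg
They lie on chr4:98929341-98929370 and chr4:98929188-98929217, on the minus strand, with the first base of the motif 225 and 72 bases before the annotated start. TGATGNAA, the composite element of ATF4 and C/EBP searched on both strands, was found in 1 member (2.38%), EIF4E3, at 1 of its 3 starts, against 3.62% of all starts and 4.46% of all genes. A match of letters is a description of the window and not a binding site.

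Gene-assigned reads per library ranged over 23168887 to 27240357 in MV411 and MOLM13 and 44364964 to 72994481 in OCI-AML3. Values below are normalised read counts, that is, reads divided by a median-of-ratios factor for each library, and log2 fold changes come from limma on log2(value + 1) with p-values adjusted by Benjamini-Hochberg over all tested genes. Factors of this kind set the median gene to about no change. The deposited tables of MOLM13 and OCI-AML3 carried other factors, taken here as spike-in factors from the tables' name, and values on that scale are given where the lines are described. The MV411 table bears the same name, but its factors equalled the median-of-ratios factors, so MV411 has no second scale here. In bulk RNA, fewer cells of a kind and less RNA per cell cannot be told apart. MEIS1, a menin and MLL target, had log2 fold changes with MI-503 of -2.31 ± 0.06 in MV411, -1.65 ± 0.05 in MOLM13 and -2.62 ± 0.04 in OCI-AML3 (SE), and DUSP6, an ERK target, had -5.26 ± 0.14 with AC220. DUSP6 was lower with MI-503 in MV411 as well, with normalised counts of 258, 211 and 250 against 1150, 1335 and 1235 with DMSO. All 8 myeloid markers stood above 1 RPM (a read count scaled to library depth) in every library. Sums of 3 markers each reached at most 0.0902 RPM for T cells, 0.089 for epithelium, 5.27 for B cells and 8.84 for fibroblasts. HBB, an erythroid gene, had 273 reads in replicate 1 of MI-503 and 488 in replicate 3 of DMSO in OCI-AML3 and at most 5 in its other 4 libraries. The OCI-AML3 count without those 2 libraries is given with that line.

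In cells given DMSO, the helicase mRNA EIF4A1 was the most abundant member per length in each line. RPKM is reads scaled to the depth of the library and to the joined length of all annotated exons of a gene. That length can exceed the length of the main mRNA, so the order of members can depend on it. The RPKM of EIF4A1 was 286 ± 8.56 in MV411, 327 ± 5.82 in MOLM13 and 284 ± 2.56 in OCI-AML3 (SD, n = 3 each). EIF3E, a subunit of eIF3, came second with 206 ± 7.33 in MV411, 250.4 ± 8.22 in MOLM13 and 211 ± 3.11 in OCI-AML3. The mRNA of the cap-binding protein stood far lower, and EIF4E ranked 42 of the 49 members with a known exon length in MV411, 40 in MOLM13 and 39 in OCI-AML3, at 3.19 ± 0.166 in MV411, 6.02 ± 0.218 in MOLM13 and 5.64 ± 0.0484 in OCI-AML3 RPKM. The length used for EIF4E was 14067 bases. In RPM, without a length, EIF4E had 44.9, 84.7 and 79.4 in MV411, MOLM13 and OCI-AML3. EIF4A1 had 1520, 1739 and 1507 RPM. The scaffold EIF4G1 had 90.4 ± 0.971 in MV411, 94.0 ± 1.73 in MOLM13 and 93.7 ± 1.26 in OCI-AML3 RPKM, close to the same in the 3 lines, whereas EIF4G3 had 11.9 ± 0.935 in MV411, 19.3 ± 0.242 in MOLM13 and 29.8 ± 0.327 in OCI-AML3. The lines were not tested against each other. The paralog EIF4E3 was far higher in MOLM13, with 0.0235 ± 0.0174 in MV411, 4.84 ± 0.179 in MOLM13 and 0.136 ± 0.0201 in OCI-AML3 RPKM. EIF3C and EIF3CL are near-identical copies and held the same number of reads in 6 of 12 MV411, 6 of 6 MOLM13 and 5 of 6 OCI-AML3 libraries, so the pair cannot be told apart. EIF5AL1, a near copy of EIF5A, is uncertain in the same way.

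Each drug treatment of MV411 changed most initiation factors, as it did most tested genes, and more of the factors fell than rose. In MV411 the combination changed 44 of 47 members (93.6%, against 79.4% of all tested genes), with 18 higher and 26 lower than DMSO. AC220 changed 40 (85.1%, against 74.9%), with 13 higher and 27 lower, and MI-503 changed 37 (78.7%, against 60.6%), with 14 higher and 23 lower. Lower members made up 55.3%, 57.4% and 48.9% with the combination, AC220 and MI-503, against 40.1%, 37.3% and 30.8% of all genes, and higher members 38.3%, 27.7% and 29.8%, against 39.3%, 37.7% and 29.8%. The median member had a log2 fold change of -0.27, -0.18 and -0.10 in that order, and the median of all genes lay within 0.02 of 0 in each. The libraries of a treatment and of DMSO did not overlap for 16 higher and 26 lower members with the combination (against 79.3% of all genes), 16 and 26 with AC220 (77.8%) and 14 and 25 with MI-503 (66.6%). Across the 3 treatments, which share the DMSO libraries, 19 members were lower in all (40.4%, against 19.8% of all tested genes) and 11 were higher in all (23.4%, against 20.4%). The remaining 17 were split over 9 patterns, among them 5 that were lower with AC220 and with the combination but did not pass with MI-503.

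**Figure D1:**
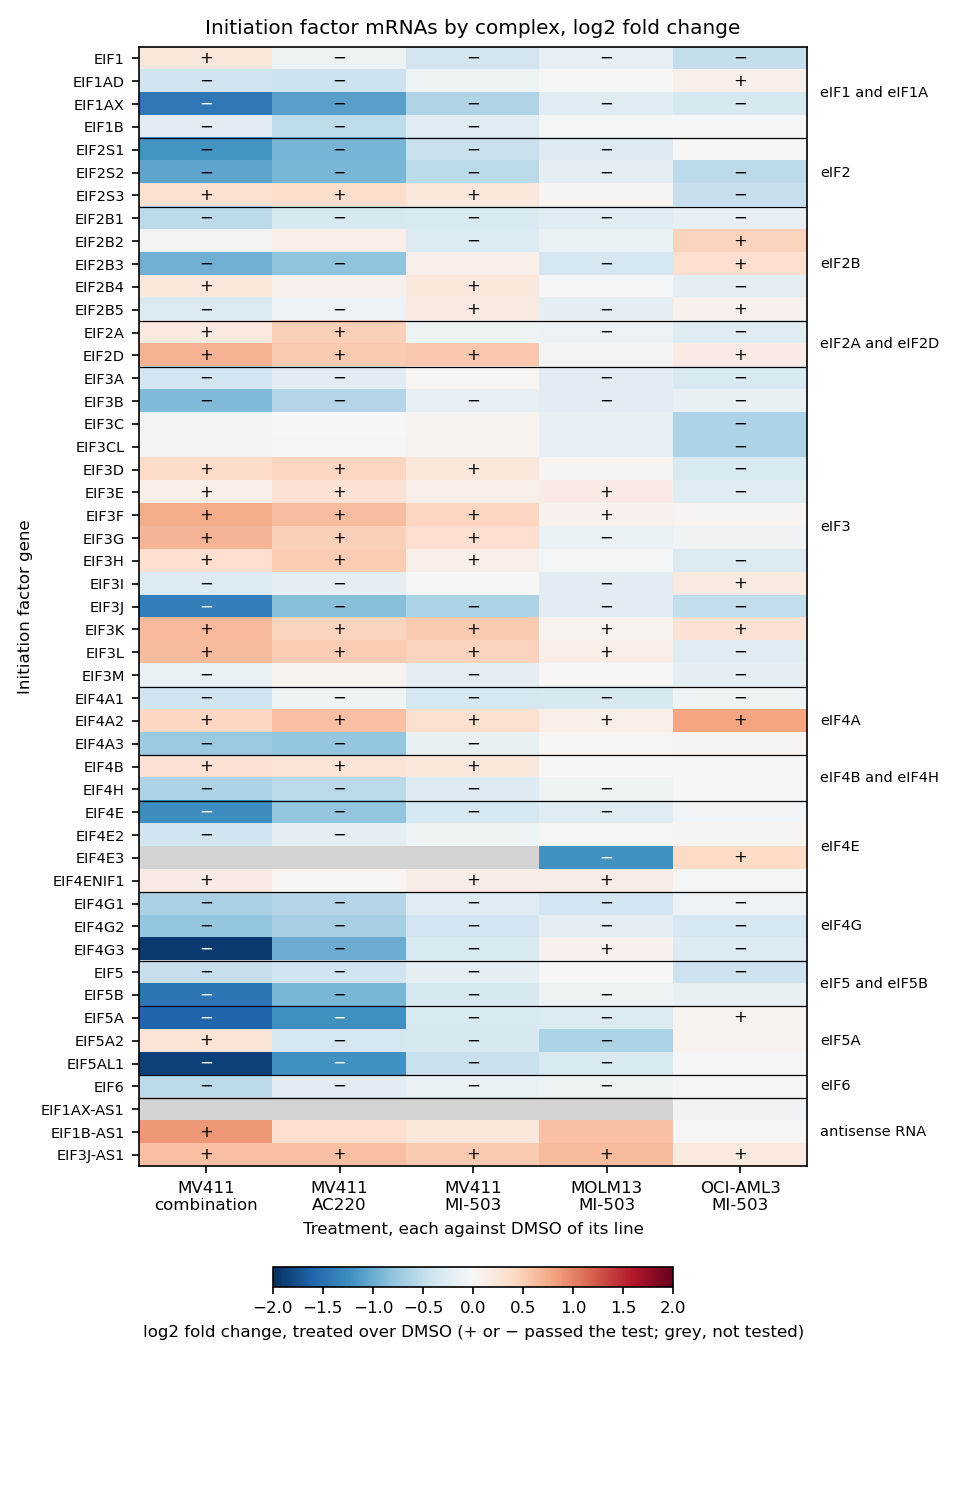
Heat map of log2 fold changes (colour) of the 49 members tested in at least 1 table, in rows by complex, for the combination, AC220 and MI-503 in MV411 and for MI-503 in MOLM13 and OCI-AML3, each over DMSO of its line. A plus or minus marks a member that passed the test in that direction and grey marks one that was not tested. Of the 14 eIF3 rows, 7 carry a plus with the combination, 7 with AC220 and 6 with MI-503 in MV411. EIF4E, the EIF4G rows, EIF2S1, EIF2S2 and EIF5A are blue in the MV411 columns.

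Most mRNAs of the cap-binding complex eIF4F and its partners fell in MV411. Of the 11 tested eIF4 members, 8 were lower and 3 higher with the combination (median log2 fold change -0.61), 8 lower and 2 higher with AC220 (-0.54), and 7 lower and 3 higher with MI-503 (-0.24). Among all genes, 40.1% were lower and 39.3% higher with the combination, 37.3% and 37.7% with AC220 and 30.8% and 29.8% with MI-503. The cap-binding subunit fell with each treatment. EIF4E had normalised counts of 456, 476 and 523 with the combination, 648, 607 and 726 with AC220, 824, 918 and 936 with MI-503 and 1197, 1125 and 1103 with DMSO. Over DMSO, EIF4E had log2 fold changes of -1.24 ± 0.07 with the combination, -0.79 ± 0.07 with AC220 and -0.36 ± 0.07 with MI-503 (SE; adjusted p = 9.99e-14, 5.72e-10 and 1.56e-04). The 4 groups did not overlap, with the combination lowest, then AC220, then MI-503. The scaffold EIF4G3 showed the largest fall of any eIF4 mRNA with the combination. EIF4G3 had normalised counts of 758, 799 and 754 with the combination, 1412, 1522 and 1447 with AC220, 2332, 2416 and 2348 with MI-503 and 3044, 2635 and 3075 with DMSO. The EIF4G3 groups differed from DMSO by log2 fold changes of -1.92 ± 0.06 with the combination, -0.995 ± 0.06 with AC220 and -0.30 ± 0.06 with MI-503 (SE; adjusted p = 1.94e-19, 6.82e-14 and 5.87e-05). Its groups stood in the same order as those of EIF4E, again without overlap. EIF4G1, the main scaffold paralog, fell less. EIF4G1 had normalised counts of 12555, 12050.0 and 11644 with the combination, 12905, 12843 and 12302 with AC220, 15925, 16056 and 16162 with MI-503 and 18695, 18777 and 19485 with DMSO. EIF4G1 log2 fold changes over DMSO were -0.65 ± 0.04 with the combination, -0.58 ± 0.04 with AC220 and -0.24 ± 0.04 with MI-503 (SE; adjusted p = 8.50e-14, 1.14e-12 and 6.09e-06). All 9 treated libraries lay below the 3 DMSO libraries.

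The helicase paralogs moved in opposite directions. EIF4A1 had normalised counts of 29810.0, 30012 and 28366 with the combination, 35688, 37710.0 and 35620.0 with AC220, 30109, 30206 and 30326 with MI-503 and 37272, 38366 and 40406 with DMSO. Over DMSO, EIF4A1 had log2 fold changes of -0.40 ± 0.04 with the combination, -0.09 ± 0.04 with AC220 and -0.36 ± 0.04 with MI-503 (SE; adjusted p = 1.77e-09, 0.0403 and 3.20e-08). EIF4A1 lay below DMSO in every library of the combination and of MI-503, while the AC220 libraries overlapped DMSO. Its AC220 call was lost, with adjusted p between 0.0569 and 0.192, without AC220 replicate 1 or 3 or without DMSO replicate 2 or 3. EIF4A2 had normalised counts of 9016, 9673 and 10358 with the combination, 10697, 11128 and 10955 with AC220, 8541, 9310.1 and 9119 with MI-503 and 7401, 7199 and 7093 with DMSO. The EIF4A2 groups differed from DMSO by log2 fold changes of 0.42 ± 0.05 with the combination, 0.60 ± 0.05 with AC220 and 0.31 ± 0.05 with MI-503 (SE; adjusted p = 1.06e-08, 2.71e-11 and 2.49e-06). EIF4A2 was above DMSO in all 9 treated libraries, most with AC220. EIF4B, which stimulates the helicase, rose as well. EIF4B had normalised counts of 23058, 24034 and 23754 with the combination, 23052, 23424 and 23502 with AC220, 22519, 22596 and 22469 with MI-503 and 18681, 19325 and 19738 with DMSO. EIF4B log2 fold changes over DMSO were 0.30 ± 0.03 with the combination, 0.28 ± 0.03 with AC220 and 0.23 ± 0.03 with MI-503 (SE; adjusted p = 4.60e-08, 1.56e-07 and 5.54e-06). The treated and DMSO libraries of EIF4B did not overlap either.

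Among the other eIF4 members, EIF4H, a relative of EIF4B, fell by 0.61 with the combination, by 0.54 with AC220 and by 0.26 with MI-503 on the log2 scale. EIF4G2, a scaffold that lacks the eIF4E-binding site, fell by 0.77, 0.66 and 0.39 in the same order. EIF4A3 fell by 0.74, 0.77 and 0.15. EIF4E2, a cap-binding protein that does not join eIF4G, fell by 0.39 with the combination and by 0.18 with AC220, and its log2 fold change of -0.09 ± 0.04 with MI-503 did not pass (adjusted p = 0.0861). EIF4ENIF1, which carries eIF4E into the nucleus, had 0.16 ± 0.06 with the combination and 0.15 ± 0.06 with MI-503, and both calls were lost without DMSO replicate 1 (adjusted p = 0.117 and 0.199). The combination call was also lost without combination replicate 1 or 2 (adjusted p = 0.104 and 0.0706), and the MI-503 call without DMSO replicate 2 or MI-503 replicate 3 (0.0903 and 0.208). EIF4E3 had 1, 1 and 2 reads with the combination, 2, 0 and 0 with AC220, 3, 1 and 2 with MI-503, and 12, 2 and 6 with DMSO, most of them at or under the 3 reads used as a floor, and no fold is given.

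**Figure D2:**
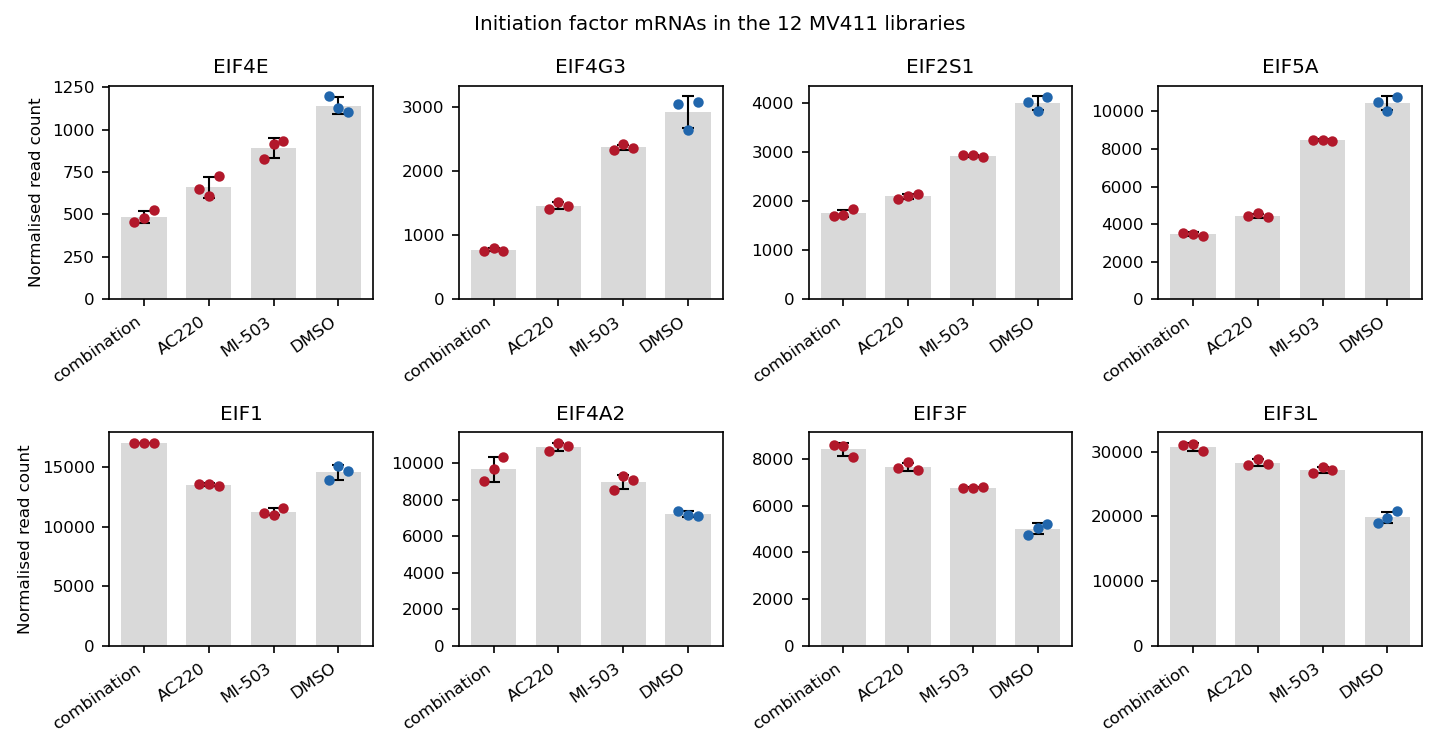
Normalised read counts of 8 members in the 12 MV411 libraries; points are single libraries, bars are means and whiskers are SD of 3 libraries, and each panel has its own axis from 0. EIF4E, EIF4G3, EIF2S1 and EIF5A are lowest with the combination and highest with DMSO, EIF3F and EIF3L run the other way, EIF4A2 is highest with AC220, and EIF1 is highest with the combination and lowest with MI-503.

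The 3 subunits of eIF2, which carries the initiator tRNA, did not move together. The alpha subunit mRNA EIF2S1, whose protein is the target of the stress kinases, fell with every treatment. EIF2S1 had normalised counts of 1693, 1720.3 and 1833 with the combination, 2045, 2110.0 and 2137 with AC220, 2932, 2939 and 2901 with MI-503 and 4022, 3835 and 4119 with DMSO. Over DMSO, EIF2S1 had log2 fold changes of -1.19 ± 0.04 with the combination, -0.93 ± 0.04 with AC220 and -0.45 ± 0.04 with MI-503 (SE; adjusted p = 2.10e-17, 3.83e-15 and 6.66e-09). The 4 groups of EIF2S1 were wholly apart. The beta subunit mRNA EIF2S2 followed the same course. EIF2S2 had normalised counts of 2394, 2641 and 2585 with the combination, 2731, 2764 and 2884 with AC220, 3524, 3704 and 3694 with MI-503 and 5064, 5312 and 5454 with DMSO. The EIF2S2 groups differed from DMSO by log2 fold changes of -1.05 ± 0.05 with the combination, -0.92 ± 0.05 with AC220 and -0.53 ± 0.05 with MI-503 (SE; adjusted p = 3.57e-16, 8.35e-15 and 5.29e-10). No treated library reached the lowest DMSO library for either gene. EIF2S3, which encodes the gamma subunit that binds GTP and tRNA, rose instead, with log2 fold changes of 0.32 ± 0.04, 0.35 ± 0.04 and 0.22 ± 0.04 (SE) with the combination, AC220 and MI-503.

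eIF2B, the exchange factor that reloads eIF2, has 5 subunit mRNAs. With the combination 3 were lower and 1 higher, with AC220 3 were lower, and with MI-503 2 were lower and 2 higher. The shares of all genes were 40.1% lower and 39.3% higher with the combination, 37.3% and 37.7% with AC220 and 30.8% and 29.8% with MI-503. EIF2B3, the gamma subunit, moved most. EIF2B3 had normalised counts of 263, 279.8 and 266 with the combination, 274, 312 and 326 with AC220, 519, 567 and 624 with MI-503 and 543, 524 and 517 with DMSO. EIF2B3 log2 fold changes over DMSO were -0.97 ± 0.08 with the combination, -0.80 ± 0.08 with AC220 and 0.11 ± 0.08 with MI-503 (SE; adjusted p = 7.75e-11, 3.45e-09 and 0.257). The AC220 and combination libraries lay below all others, whereas MI-503 and DMSO overlapped. EIF2B1, the alpha subunit, fell by 0.53, 0.32 and 0.30 on the log2 scale with the combination, AC220 and MI-503. EIF2B4, the delta subunit, rose by 0.23 with the combination and 0.21 with MI-503. EIF2B5, the catalytic subunit, had -0.29 with the combination, -0.12 with AC220 and 0.18 with MI-503, and its AC220 call was lost without AC220 replicate 1 (adjusted p = 0.0941) or DMSO replicate 3 (0.0983). For the beta subunit mRNA EIF2B2, only MI-503 passed against DMSO. EIF2B2 had normalised counts of 791, 714 and 723 with the combination, 816, 839 and 883 with AC220, 604, 608 and 691 with MI-503 and 763, 747 and 795 with DMSO. Over DMSO, EIF2B2 had log2 fold changes of -0.05 ± 0.06 with the combination, 0.14 ± 0.06 with AC220 and -0.28 ± 0.06 with MI-503 (SE; adjusted p = 0.482, 0.0568 and 6.71e-04).

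The factors EIF2A and EIF2D, which can deliver tRNA to the ribosome outside the eIF2 route, rose with the combination and with AC220. EIF2D had normalised counts of 2241, 2304 and 2083 with the combination, 1923, 2105 and 1913 with AC220, 2006, 1984 and 1973 with MI-503 and 1294, 1376 and 1444 with DMSO. The EIF2D groups differed from DMSO by log2 fold changes of 0.69 ± 0.05 with the combination, 0.53 ± 0.05 with AC220 and 0.54 ± 0.05 with MI-503 (SE; adjusted p = 1.99e-11, 3.11e-09 and 5.94e-09). The treated libraries of EIF2D all lay above DMSO. EIF2A had normalised counts of 5758, 6319 and 6242 with the combination, 7204, 7614 and 7215 with AC220, 5075, 4942 and 4841 with MI-503 and 5119.8, 5463 and 5326 with DMSO. EIF2A log2 fold changes over DMSO were 0.20 ± 0.04 with the combination, 0.47 ± 0.04 with AC220 and -0.10 ± 0.04 with MI-503 (SE; adjusted p = 1.61e-04, 7.11e-10 and 0.052). EIF2A was highest with AC220 in all 3 libraries, and its MI-503 and DMSO values did not overlap although the difference did not pass the test.

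eIF3, the large scaffold of the small subunit, was split. Without the unresolved pair EIF3C and EIF3CL, 7 of its 12 mRNAs were higher and 5 lower with the combination (median log2 fold change 0.23), 7 higher and 4 lower with AC220 (0.36), and 6 higher and 3 lower with MI-503 (0.11). Across all genes, 39.3% were higher and 40.1% lower with the combination, 37.7% and 37.3% with AC220 and 29.8% and 30.8% with MI-503. EIF3C and EIF3CL did not pass in any of the 3. The risers were EIF3D, EIF3E, EIF3F, EIF3G, EIF3H, EIF3K and EIF3L, with EIF3E not passing for MI-503. EIF3F had normalised counts of 8618, 8552 and 8082 with the combination, 7602, 7871 and 7534 with AC220, 6755, 6763 and 6821 with MI-503 and 4769, 5067 and 5229 with DMSO. Over DMSO, EIF3F had log2 fold changes of 0.75 ± 0.04 with the combination, 0.61 ± 0.04 with AC220 and 0.43 ± 0.04 with MI-503 (SE; adjusted p = 3.32e-14, 2.21e-12 and 2.82e-09). All 9 treated libraries of EIF3F lay above DMSO. EIF3L had normalised counts of 30968, 31229 and 30059 with the combination, 27859, 28893 and 28032 with AC220, 26720.0, 27650.0 and 27162 with MI-503 and 18993, 19728 and 20746 with DMSO. The EIF3L groups differed from DMSO by log2 fold changes of 0.63 ± 0.04 with the combination, 0.51 ± 0.04 with AC220 and 0.46 ± 0.04 with MI-503 (SE; adjusted p = 1.63e-13, 1.37e-11 and 3.15e-10). The same held for EIF3L, which belongs with EIF3K and EIF3E to one module of the complex. EIF3K and EIF3G, which binds RNA, also rose with each treatment. EIF3K had normalised counts of 15521, 15225 and 14279 with the combination, 12693, 13343 and 13158 with AC220, 13561, 13846 and 14184 with MI-503 and 9285, 9600.5 and 9954 with DMSO. EIF3K log2 fold changes over DMSO were 0.64 ± 0.04 with the combination, 0.44 ± 0.04 with AC220 and 0.53 ± 0.04 with MI-503 (SE; adjusted p = 4.24e-13, 6.10e-10 and 7.14e-11). The combination libraries of EIF3K were the highest. EIF3G had normalised counts of 10567, 9496 and 8987 with the combination, 8816, 8384 and 7903 with AC220, 7557, 7557 and 7719 with MI-503 and 5986, 6119.6 and 5915 with DMSO. Over DMSO, EIF3G had log2 fold changes of 0.69 ± 0.05 with the combination, 0.48 ± 0.05 with AC220 and 0.34 ± 0.05 with MI-503 (SE; adjusted p = 5.37e-12, 5.38e-09 and 2.12e-06). Neither EIF3K nor EIF3G had a treated library within the DMSO range.

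EIF3H, a subunit with an MPN domain, rose most with AC220. EIF3H had normalised counts of 21922, 22894 and 22586 with the combination, 24919, 26003 and 25001 with AC220, 19458, 19503 and 18920.0 with MI-503 and 16742, 18416 and 18537 with DMSO. The EIF3H groups differed from DMSO by log2 fold changes of 0.33 ± 0.04 with the combination, 0.50 ± 0.04 with AC220 and 0.11 ± 0.04 with MI-503 (SE; adjusted p = 7.64e-08, 6.69e-11 and 0.022). Its MI-503 libraries stood just above DMSO. Its MI-503 call was lost without DMSO replicate 1 (adjusted p = 0.179), MI-503 replicate 1 (0.0655) or MI-503 replicate 2 (0.0692). EIF3D, a subunit that can itself bind caps, rose by 0.38, 0.43 and 0.20. EIF3E rose less. EIF3E had normalised counts of 30138, 35805 and 38893 with the combination, 39052, 37111 and 39091 with AC220, 34717, 35901 and 32235 with MI-503 and 30126, 32295 and 32260.0 with DMSO. EIF3E log2 fold changes over DMSO were 0.14 ± 0.06 with the combination, 0.28 ± 0.06 with AC220 and 0.12 ± 0.06 with MI-503 (SE; adjusted p = 0.0416, 2.29e-04 and 0.0998). The combination and DMSO libraries of EIF3E overlapped, and its combination call was lost without combination replicate 2 or 3 (adjusted p = 0.134 and 0.347) or DMSO replicate 1 or 3 (0.162 and 0.0518).

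The fallers of eIF3 included its 2 core scaffolds and the loosely bound subunit EIF3J. EIF3J had normalised counts of 1489.8, 1739.6 and 1864 with the combination, 2390.5, 2375 and 2526 with AC220, 2920.2, 2916 and 2667 with MI-503 and 4532, 4261 and 4320.2 with DMSO. Over DMSO, EIF3J had log2 fold changes of -1.37 ± 0.06 with the combination, -0.85 ± 0.06 with AC220 and -0.63 ± 0.06 with MI-503 (SE; adjusted p = 5.89e-16, 8.60e-12 and 4.92e-09). No EIF3J value of a treated library reached the DMSO range. EIF3B had normalised counts of 5945, 5716 and 5532 with the combination, 7064, 7052 and 6997 with AC220, 9385, 9626 and 9438 with MI-503 and 10449, 10349 and 10951 with DMSO. The EIF3B groups differed from DMSO by log2 fold changes of -0.88 ± 0.04 with the combination, -0.59 ± 0.04 with AC220 and -0.16 ± 0.04 with MI-503 (SE; adjusted p = 3.19e-16, 1.24e-12 and 0.001). EIF3B, the RNA-binding core subunit, fell with each treatment and by the largest amount with the combination. EIF3A had normalised counts of 15280.0, 15927 and 15276 with the combination, 16891, 17813 and 17365 with AC220, 20197, 21020.0 and 21053 with MI-503 and 20388, 19574 and 20722 with DMSO. EIF3A log2 fold changes over DMSO were -0.38 ± 0.04 with the combination, -0.22 ± 0.04 with AC220 and 0.04 ± 0.04 with MI-503 (SE; adjusted p = 1.51e-09, 1.15e-05 and 0.401). EIF3A, the largest subunit, lay below DMSO with the combination and AC220, while the MI-503 libraries overlapped DMSO. EIF3I, a partner of EIF3B, fell by 0.27 with the combination and 0.20 with AC220, and its MI-503 value of -0.01 did not pass (adjusted p = 0.918). EIF3M fell by 0.13 with the combination and by 0.18 with MI-503, the combination call being lost without combination replicate 1 (adjusted p = 0.0535).

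EIF1 and eIF1A guard the choice of start codon. The eIF1A mRNA EIF1AX fell in every treatment. EIF1AX had normalised counts of 567, 611 and 705 with the combination, 823, 750.1 and 832 with AC220, 1127, 1174 and 1049 with MI-503 and 1876, 1563 and 1661 with DMSO. Over DMSO, EIF1AX had log2 fold changes of -1.44 ± 0.08 with the combination, -1.08 ± 0.08 with AC220 and -0.60 ± 0.08 with MI-503 (SE; adjusted p = 1.40e-14, 4.77e-12 and 2.61e-07). None of its treated libraries overlapped DMSO. EIF1 went in opposite directions. EIF1 had normalised counts of 17022, 17037 and 17042 with the combination, 13589, 13579 and 13386 with AC220, 11143, 10989 and 11575 with MI-503 and 13869, 15075 and 14698 with DMSO. The EIF1 groups differed from DMSO by log2 fold changes of 0.23 ± 0.04 with the combination, -0.10 ± 0.04 with AC220 and -0.37 ± 0.04 with MI-503 (SE; adjusted p = 6.50e-06, 0.0147 and 8.70e-09). The 3 combination libraries lay above every other MV411 library, while the AC220 and MI-503 libraries lay below DMSO. The AC220 call of EIF1 was lost without DMSO replicate 2 (adjusted p = 0.0872). EIF1B, its paralog, stood below DMSO with every treatment. EIF1B had normalised counts of 1353, 1399.8 and 1383 with the combination, 1167, 1063 and 1162 with AC220, 1343, 1389 and 1339.7 with MI-503 and 1624, 1611 and 1589 with DMSO. EIF1B log2 fold changes over DMSO were -0.22 ± 0.05 with the combination, -0.51 ± 0.05 with AC220 and -0.24 ± 0.05 with MI-503 (SE; adjusted p = 2.61e-04, 1.84e-09 and 1.58e-04). EIF1AD, which shares a domain with eIF1A, fell by 0.39 with the combination and by 0.42 with AC220.

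The factors of the last step, EIF5 and EIF5B, also fell. EIF5, which makes eIF2 hydrolyse its GTP, fell by 0.46, 0.40 and 0.20 on the log2 scale with the combination, AC220 and MI-503. EIF5B had normalised counts of 2629, 2729.5 and 2577 with the combination, 3561, 3963 and 3980.1 with AC220, 5456, 6043 and 5818 with MI-503 and 7230.5, 7045 and 7309 with DMSO. Over DMSO, EIF5B had log2 fold changes of -1.44 ± 0.05 with the combination, -0.91 ± 0.05 with AC220 and -0.32 ± 0.05 with MI-503 (SE; adjusted p = 1.94e-18, 2.02e-14 and 3.46e-06). EIF5B, which joins the large subunit, thus fell further than EIF5, and its 4 groups were wholly apart. EIF6 fell by less. EIF6 had normalised counts of 1858, 1736 and 1677 with the combination, 2181, 2243 and 2173 with AC220, 2371, 2329.5 and 2346 with MI-503 and 2486, 2463 and 2752 with DMSO. The EIF6 groups differed from DMSO by log2 fold changes of -0.55 ± 0.05 with the combination, -0.22 ± 0.05 with AC220 and -0.13 ± 0.05 with MI-503 (SE; adjusted p = 4.31e-10, 3.19e-04 and 0.031). The EIF6 libraries of each treatment lay below DMSO, but the MI-503 call was lost without DMSO replicate 3 (adjusted p = 0.217) or without MI-503 replicate 1, 2 or 3 (0.0542, 0.0792 and 0.0688).

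EIF5A, the protein that carries the modified lysine hypusine, had one of the largest falls. EIF5A had normalised counts of 3547, 3499.6 and 3344 with the combination, 4418, 4566 and 4353 with AC220, 8480.0, 8498 and 8431 with MI-503 and 10493, 10028 and 10777 with DMSO. EIF5A log2 fold changes over DMSO were -1.59 ± 0.04 with the combination, -1.23 ± 0.04 with AC220 and -0.30 ± 0.04 with MI-503 (SE; adjusted p = 1.28e-20, 1.84e-18 and 6.11e-07). The AC220 and combination libraries of EIF5A all lay under every MI-503 library, which in turn lay under DMSO. EIF5AL1 had normalised counts of 39.5, 41.7 and 29.8 with the combination, 61.4, 66.7 and 47.9 with AC220, 113, 86.7 and 99.3 with MI-503 and 137, 126 and 146 with DMSO. Over DMSO, EIF5AL1 had log2 fold changes of -1.87 ± 0.16 with the combination, -1.21 ± 0.16 with AC220 and -0.45 ± 0.16 with MI-503 (SE; adjusted p = 1.59e-10, 3.18e-07 and 0.0178). Reads of this near copy may be those of EIF5A. EIF5A2, the scarce paralog, went the other way with the combination. EIF5A2 had normalised counts of 209, 235 and 263 with the combination, 173, 152 and 136 with AC220, 143, 178 and 146 with MI-503 and 208, 196 and 179.8 with DMSO. The EIF5A2 groups differed from DMSO by log2 fold changes of 0.27 ± 0.11 with the combination, -0.34 ± 0.11 with AC220 and -0.32 ± 0.11 with MI-503 (SE; adjusted p = 0.036, 0.00991 and 0.0186). The combination libraries of EIF5A2 stood above DMSO and both single drugs below it, but at counts this low each call depended on single libraries. The combination call was lost without combination replicate 2 or 3 (adjusted p = 0.0723 and 0.173) or DMSO replicate 2 or 3 (0.0614 and 0.139), and the AC220 call without AC220 replicate 3 (0.065). The MI-503 calls of EIF5A2 and EIF5AL1 were lost as well, the first without DMSO replicate 1 or MI-503 replicate 1 or 3 (adjusted p = 0.0802, 0.0853 and 0.0728) and the second without DMSO replicate 3 or MI-503 replicate 2 (0.0686 and 0.0936).

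Of the antisense RNAs, EIF3J-AS1 rose with every treatment. EIF3J-AS1 had normalised counts of 224, 183 and 242 with the combination, 212, 209 and 226 with AC220, 202, 218 and 192 with MI-503 and 153, 139 and 134 with DMSO. EIF3J-AS1 log2 fold changes over DMSO were 0.60 ± 0.10 with the combination, 0.60 ± 0.10 with AC220 and 0.52 ± 0.10 with MI-503 (SE; adjusted p = 1.59e-05, 1.70e-05 and 1.64e-04). Its treated libraries all lay above DMSO. EIF1B-AS1 had normalised counts of 37.2, 37.6 and 39.0 with the combination, 30.7, 23.9 and 24.4 with AC220, 17.0, 26.3 and 30.2 with MI-503 and 18.1, 21.1 and 22.5 with DMSO. Over DMSO, EIF1B-AS1 had log2 fold changes of 0.86 ± 0.23 with the combination, 0.34 ± 0.23 with AC220 and 0.21 ± 0.23 with MI-503 (SE; adjusted p = 0.00139, 0.176 and 0.433). EIF1B-AS1 passed only with the combination, at under 40 counts per library. How the authors' counting treated strand is not given in the sources used here. EIF1B-AS1 reaches up to base 40309698 of chromosome 3 and EIF1B starts at 40309707, so this pair does not overlap. No position was read for EIF3J-AS1, so its reads and those of a gene it may overlap cannot be told apart.

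The combination was then set against each single drug in MV411. Against AC220, 31 of 47 members differed (66%, against 55.5% of all genes), 9 higher (background 27.4%) and 22 lower (28.1%), and 9 and 23 had libraries wholly apart (59.1%). The largest falls below AC220 were those of EIF4G3 (-0.92 ± 0.06, SE), EIF5AL1 (-0.65 ± 0.16), EIF5B (-0.53 ± 0.05) and EIF3J (-0.52 ± 0.06), and EIF4E fell by 0.44. The largest rises were EIF5A2 (0.61 ± 0.11), EIF1 (0.33 ± 0.04), EIF1B (0.29 ± 0.05) and EIF3G (0.21 ± 0.05). Against MI-503, 37 of 47 differed (78.7%, against 68.5%), 14 higher (background 34.9%) and 23 lower (33.6%), and 13 and 24 were wholly apart (70.6%), again led downwards by EIF4G3 (-1.62 ± 0.06), EIF5AL1 (-1.41 ± 0.16), EIF5A (-1.29 ± 0.04) and EIF5B (-1.12 ± 0.05). Upwards EIF1B-AS1 (0.65 ± 0.23), EIF1 (0.60 ± 0.04), EIF5A2 (0.59 ± 0.11) and EIF3G (0.34 ± 0.05) led, and the first of these lost its call without MI-503 replicate 1 (adjusted p = 0.116). AC220 against MI-503 differed in 33 of 47 (70.2%, against 68.3%), 12 higher (background 33.8%) and 21 lower (34.5%), and 14 and 25 were wholly apart (72.8%), with EIF5A (-0.93 ± 0.04) and EIF2B3 (-0.90 ± 0.08) furthest below and EIF2A (0.57 ± 0.04) and EIF2B2 (0.42 ± 0.06) furthest above.

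The interaction asks whether the combination differed from the sum of the single-drug effects on the log2 scale, taken as the combination less both single drugs, with DMSO added back. It passed for 27 of 47 members (57.4%, against 42.5% of all genes), 9 above the sum (background 20.9%) and 18 below it (21.6%). EIF4G3 departed from the sum by -0.62 ± 0.08 (SE; adjusted p = 7.69e-07), so its combination value of -1.92 was further down than the single-drug values of -0.995 and -0.30 add up to. EIF1 lay above the sum by 0.71 ± 0.05 (adjusted p = 2.09e-10), as did EIF5A2 (0.94 ± 0.16; 5.81e-05), EIF1B (0.53 ± 0.07; 1.38e-06) and EIF2S2 (0.40 ± 0.06; 2.57e-05). EIF4A2 (-0.49 ± 0.06; 1.47e-06), EIF2D (-0.38 ± 0.07; 2.45e-04) and EIF3J-AS1 (-0.52 ± 0.15; 0.00633) lay below it, and each of these rose with either drug alone. Of the 12 eIF3 mRNAs without the unresolved pair, 8 lay below the sum and 0 above it, with a median of -0.23, and by unadjusted p under 0.05 no eIF3 member lay above it either. EIF4E was not shown to depart from the sum (-0.09 ± 0.10; 0.522), nor was EIF5A (-0.06 ± 0.06; 0.409) or EIF1AX (0.25 ± 0.11; 0.0657). Of the 8 eIF3 mRNAs below the sum, EIF3B (-0.14 ± 0.05) lost its call without any 1 of 10 libraries, with adjusted p between 0.0552 and 0.0945, and EIF3E (-0.26 ± 0.09) without DMSO replicate 1 or MI-503 replicate 2 (0.0521 and 0.0526).

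In MOLM13, more initiation factors fell than rose with MI-503, most by small amounts. On the gene scale 32 of 48 members passed (66.7%, against 59.9% of all genes), 8 higher (16.7%, against 29.8%) and 24 lower (50%, against 30.1%), with a median log2 fold change of -0.11. The libraries were wholly apart for 11 higher and 26 lower members (against 64.9%). EIF4E3, a cap-binding paralog, fell most. For EIF4E3, the values were 577, 564 and 567 with MI-503 and 1293, 1294 and 1388 with DMSO (log2 fold change -1.22 ± 0.05, SE; adjusted p = 7.05e-13). In raw reads it had 575, 516 and 580 with MI-503 against 1392, 1319 and 1377 with DMSO. EIF5A2 had 92.3, 72.1 and 72.4 with MI-503 and 124, 122 and 123 with DMSO, which is a log2 fold change of -0.64 ± 0.13 (SE; adjusted p = 3.54e-04). Both mRNAs were far from overlap between the groups. Of the 12 tested eIF4 members 3 were higher and 6 lower, against 29.8% and 30.1% of all genes, with a median of -0.04. EIF4G1, EIF4A1 and EIF4E were among the lower ones, while the paralogs EIF4A2 and EIF4G3 were higher. For EIF4G1, the values were 15259, 14958 and 14913 with MI-503 and 20059, 19416 and 19644 with DMSO (log2 fold change -0.39 ± 0.02, SE; adjusted p = 6.05e-10). EIF4A1 had 36181, 35809 and 34148 with MI-503 and 44808, 43313 and 44298 with DMSO, which is a log2 fold change of -0.32 ± 0.03 (SE; adjusted p = 2.88e-08). For EIF4E, the values were 1853, 1776 and 1848 with MI-503 and 2108, 2236 and 2106 with DMSO (log2 fold change -0.24 ± 0.04, SE; adjusted p = 2.82e-05). All 3 genes had each MI-503 library below each DMSO library. EIF4B gave 30349, 30134 and 29509 with MI-503 and 29121, 29662 and 31116 with DMSO and did not pass (adjusted p = 0.956).

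The eIF2 and eIF2B mRNAs followed in MOLM13, where 5 of 8 were lower and 0 higher, against 30.1% and 29.8% of all genes. EIF2S3 was higher by an unadjusted p under 0.05 (log2 fold change 0.06). EIF2S1 had 2019, 2031 and 2046 with MI-503 and 2447, 2413 and 2450.1 with DMSO, which is a log2 fold change of -0.26 ± 0.03 (SE; adjusted p = 1.62e-06). For EIF2S2, the values were 5714, 5616 and 5692 with MI-503 and 6403, 6592 and 6403 with DMSO (log2 fold change -0.19 ± 0.03, SE; adjusted p = 1.05e-05). EIF2B3 had 965, 1054 and 995 with MI-503 and 1345, 1228 and 1241 with DMSO, which is a log2 fold change of -0.34 ± 0.05 (SE; adjusted p = 9.81e-06). The MI-503 libraries of each gene lay below DMSO. Of the 12 eIF3 mRNAs without the unresolved pair, 4 were higher and 5 lower, against 29.8% and 30.1% of all genes. The core scaffolds fell, while EIF3E, EIF3F, EIF3K and EIF3L rose. For EIF3B, the values were 9125, 8620.0 and 8721 with MI-503 and 10014, 10100.0 and 10392 with DMSO (log2 fold change -0.21 ± 0.03, SE; adjusted p = 8.42e-06). EIF3A had 27727, 28329 and 28074 with MI-503 and 32538, 32709 and 32445 with DMSO, which is a log2 fold change of -0.22 ± 0.02 (SE; adjusted p = 5.54e-07). For EIF3E, the values were 44281, 41954 and 41760.0 with MI-503 and 36635, 39064 and 38809 with DMSO (log2 fold change 0.16 ± 0.03, SE; adjusted p = 2.30e-04). EIF3A and EIF3B lay below DMSO and EIF3E above it, without overlap. EIF3L had 22248, 21456 and 21059 with MI-503 and 19307, 19723 and 20263 with DMSO, which is a log2 fold change of 0.13 ± 0.03 (SE; adjusted p = 7.66e-04). For EIF5A, the values were 10003, 9351 and 9364 with MI-503 and 12051, 11373 and 11676 with DMSO (log2 fold change -0.29 ± 0.03, SE; adjusted p = 4.79e-07). EIF5A fell, as in MV411 with the same drug for a day less.

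Further risers were EIF4A2, EIF4ENIF1 and EIF3J-AS1. EIF4A2 had 10582, 10962 and 10584 with MI-503 and 9694, 10280.0 and 9807 with DMSO, which is a log2 fold change of 0.11 ± 0.03 (SE; adjusted p = 0.003). For EIF4ENIF1, the values were 1184, 1187 and 1236 with MI-503 and 1123, 1059 and 1084 with DMSO (log2 fold change 0.14 ± 0.04, SE; adjusted p = 0.00633). EIF3J-AS1 had 141, 134 and 144 with MI-503 and 85.4, 88.3 and 96.8 with DMSO, which is a log2 fold change of 0.63 ± 0.11 (SE; adjusted p = 1.11e-04). The groups of these 3 did not overlap. EIF6 had 2110.1, 2001 and 2019 with MI-503 and 2337, 2062 and 2207 with DMSO and overlapped, and its call was lost without DMSO replicate 1 or 3 or MI-503 replicate 2 or 3 (adjusted p = 0.231, 0.0944, 0.0993 and 0.112). EIF4H, with -0.09 ± 0.03, lost its call without DMSO replicate 3 or MI-503 replicate 3 (0.159 and 0.129). EIF4G3, with 0.08 ± 0.03, lost its call without DMSO replicate 1 or 3 or MI-503 replicate 2 (0.0636, 0.055 and 0.0839). EIF3K (0.08 ± 0.03) lost it without DMSO replicate 2 or MI-503 replicate 1 (0.0891 and 0.0523), and EIF5AL1 (-0.30 ± 0.10) without DMSO replicate 1 or MI-503 replicate 2 (0.104 and 0.0612).

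On the deposited scale of MOLM13, 46 of 48 members were lower (the background being 76.7% of all genes) and 0 higher (against 6.74%), by limma and by edgeR alike. The 2 that did not pass were EIF1B-AS1 (0.09, adjusted p = 0.814) and EIF3J-AS1 (0.10, 0.518), and the count at an unadjusted p under 0.05 was also 46. The median member had -0.64 and the median gene -0.54 on that scale. EIF4E had -0.77, EIF4G1 -0.92 and EIF4E3 -1.75. The risers of the gene scale turned round, EIF4A2 to -0.42, EIF3E to -0.37 and EIF3L to -0.40, each still above the median gene.

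In OCI-AML3, MI-503 changed 33 of 49 members on the gene scale (67.3%, against 65.5% of all genes), 11 higher (22.4%, against 32.8%) and 22 lower (44.9%, against 32.8%), with a median of -0.07. The libraries were wholly apart for 12 higher and 24 lower members (against 69.6%). Without the 2 libraries that held HBB reads, an alternative chosen after seeing the data, 38 passed. EIF4A2 rose more than any other member. For EIF4A2, the values were 25921, 25325 and 24856 with MI-503 and 14415, 14845 and 14737 with DMSO (log2 fold change 0.79 ± 0.03, SE; adjusted p = 1.22e-10). Its MI-503 libraries were far above DMSO, while the paralog EIF4A1 fell. EIF4A1 had 83451, 85984 and 85355 with MI-503 and 91575, 90633 and 91818 with DMSO, which is a log2 fold change of -0.11 ± 0.02 (SE; adjusted p = 0.00173). For EIF4E, the values were 4707, 4535 and 4713 with MI-503 and 4827, 4853 and 4757 with DMSO (log2 fold change -0.05 ± 0.03, SE; adjusted p = 0.158). The groups of EIF4E were apart, by an amount that did not pass the test. EIF4G1 had 42433, 43561 and 44330.0 with MI-503 and 47046, 46321 and 47354 with DMSO, which is a log2 fold change of -0.11 ± 0.02 (SE; adjusted p = 0.00185). For EIF4B, the values were 61101, 60871 and 61127 with MI-503 and 61509, 62275 and 61206 with DMSO (log2 fold change -0.01 ± 0.02, SE; adjusted p = 0.579). Of the 12 eIF4 members 2 were higher and 4 lower, against 32.8% and 32.8% of all genes, with a median of -0.03.

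Most of eIF3 fell in OCI-AML3, with 8 lower and 2 higher of the 12 that can be resolved (median -0.21). Of all genes, 32.8% were lower and 32.8% higher. The unresolved pair fell together, and EIF3C had 492, 564 and 578 with MI-503 and 847, 867 and 797 with DMSO (log2 fold change -0.62 ± 0.07, SE; adjusted p = 4.18e-06). EIF3CL had the same change of -0.62 ± 0.07 as its copy. Each MI-503 library of both lay below DMSO. EIF3J had 6618, 5622 and 5823 with MI-503 and 8383, 8246 and 8593 with DMSO, which is a log2 fold change of -0.48 ± 0.05 (SE; adjusted p = 3.07e-06). For EIF3A, the values were 35477, 33811 and 33853 with MI-503 and 42469, 41965 and 43410.0 with DMSO (log2 fold change -0.31 ± 0.03, SE; adjusted p = 7.30e-07). EIF3B had 17133, 19008 and 18864 with MI-503 and 20284, 20556 and 19892 with DMSO, which is a log2 fold change of -0.14 ± 0.04 (SE; adjusted p = 0.00431). These core and associated subunits stood below DMSO in every library. For EIF3E, the values were 65603, 65624 and 63643 with MI-503 and 76246, 78208 and 75748 with DMSO (log2 fold change -0.24 ± 0.02, SE; adjusted p = 3.38e-06). EIF3E thus fell, too, and so did EIF3D (-0.30 ± 0.03), EIF3H (-0.29 ± 0.03) and EIF3L (-0.25 ± 0.02). EIF3K (0.29 ± 0.03) and EIF3I (0.17 ± 0.03) rose.

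The eIF2B mRNAs EIF2B2 and EIF2B3 rose. EIF2B2 had 2106, 2093 and 2031 with MI-503 and 1489.5, 1519.8 and 1498 with DMSO, which is a log2 fold change of 0.47 ± 0.04 (SE; adjusted p = 2.21e-07). For EIF2B3, the values were 3383, 3637 and 3424 with MI-503 and 2672, 2789.9 and 2835 with DMSO (log2 fold change 0.33 ± 0.04, SE; adjusted p = 8.03e-06). Each MI-503 library lay above each DMSO library. The eIF2 subunits did not rise. EIF2S2 had 13272, 12231 and 12254 with MI-503 and 17761, 17659 and 18579 with DMSO, which is a log2 fold change of -0.52 ± 0.03 (SE; adjusted p = 8.02e-08). EIF2S3 fell by 0.46, and EIF2S1 had 11580.0, 11042 and 10998 with MI-503 and 10973, 11106 and 11315 with DMSO (adjusted p = 0.786). For EIF5A, the values were 22937, 23438 and 23214 with MI-503 and 21965, 21393 and 22732 with DMSO (log2 fold change 0.07 ± 0.03, SE; adjusted p = 0.0295). That call was lost without DMSO replicate 1 or 2 or MI-503 replicate 2 or 3 (adjusted p = 0.0912, 0.153, 0.0916 and 0.0748). EIF6 had 5792, 6353 and 6456 with MI-503 and 6299, 6366 and 6299 with DMSO and did not pass (adjusted p = 0.518).

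EIF4E3 had 134, 110.1 and 109 with MI-503 and 78.6, 104 and 84.5 with DMSO, which is a log2 fold change of 0.40 ± 0.13 (SE; adjusted p = 0.0202). This call of EIF4E3 rested on 85 to 125 reads per library. It was lost without DMSO replicate 1 or 3 or MI-503 replicate 1 (adjusted p = 0.0854, 0.0605 and 0.0692) and without both libraries with HBB reads (0.124). The call of EIF1AD (0.10 ± 0.04) was lost without DMSO replicate 1, 2 or 3 or MI-503 replicate 2 or 3 (adjusted p between 0.0537 and 0.146), and that of EIF2B5 (0.09 ± 0.03) without DMSO replicate 2 or MI-503 replicate 3 (adjusted p = 0.0703 and 0.0646).

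On the deposited scale of OCI-AML3, 2 members passed, EIF3C (-0.78, adjusted p = 0.0334) and EIF3CL (-0.78, 0.033), both lower (against 6.82% of all genes), and 0 higher (against 3.85%). By unadjusted p under 0.05 the count was 8, with limma and with edgeR, and edgeR's adjusted test passed 0 members. EIF4A2 had 0.63 on this scale (adjusted p = 0.125). The median member had -0.22 and the median gene -0.16.

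**Figure D3:**
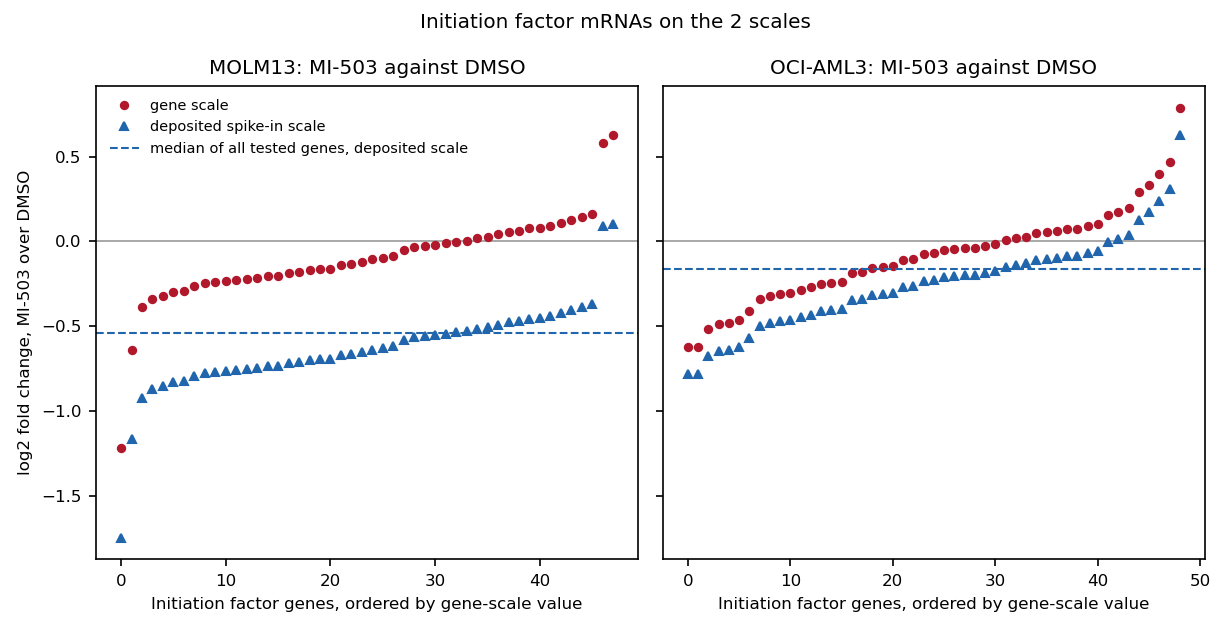
Log2 fold changes of MI-503 over DMSO for the 48 members tested in MOLM13 (left) and the 49 in OCI-AML3 (right), ordered by the gene-scale value on the x axis; red circles are the gene scale, blue triangles the deposited scale, and the dashed line is the median of all tested genes on the deposited scale. The triangles lie below the circles throughout, by more in MOLM13, where the dashed line is at -0.54, than in OCI-AML3, where it is at -0.16.

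Side by side, MI-503 gave 9 of 47 members that were lower in all 3 lines (19.1%, against 7.22% of the genes tested in all 3) and 3 that were higher in all 3 (6.38%, against 7.13%) on the gene scale. Among those tested in both tables, opposite calls with groups wholly apart were seen for 3 of 47 members between MV411 and MOLM13 (6.38%, against 11.0% of genes tested in both), 7 of 47 between MV411 and OCI-AML3 (14.9%, against 15.5%) and 8 of 48 between MOLM13 and OCI-AML3 (16.7%, against 16.5%). These shares of members were near or below those of all genes. The tables were normalised separately and MV411 was treated for 3 days rather than 4, so no test was made between lines. The 3 risers in all lines were EIF3K, EIF4A2 and EIF3J-AS1. The 9 fallers were EIF1, EIF1AX, EIF2B1, EIF2S2, EIF3B, EIF3J, EIF4A1, EIF4G1 and EIF4G2. On the deposited scale EIF3K and EIF4A2 fell in MOLM13 (-0.46 and -0.42) and EIF3J-AS1 did not pass there. In OCI-AML3 none of the 3 risers or 9 fallers passed on that scale, where only EIF3C and EIF3CL did. EIF4A2 had 0.63 there (limma adjusted p = 0.125). EIF4E had -0.36 ± 0.07 in MV411, -0.24 ± 0.04 in MOLM13 and -0.05 ± 0.03 in OCI-AML3. EIF2B3 had 0.11 ± 0.08, -0.34 ± 0.05 and 0.33 ± 0.04 in that order, and EIF3L 0.46 ± 0.04, 0.13 ± 0.03 and -0.25 ± 0.02.

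Ratios of paralogs within a library do not depend on the scale, since both genes are divided by the same factor. EIF4A1 and EIF4A2 encode closely related helicases, and their ratio was lower in every treated group than in DMSO. Log2 of EIF4A1 over EIF4A2 was 1.73, 1.63 and 1.45 with the combination, 1.74, 1.76 and 1.70 with AC220 and 1.82, 1.70 and 1.73 with MI-503 in MV411, and 2.33, 2.41 and 2.51 with DMSO. In MOLM13 it was 1.77, 1.71 and 1.69 with MI-503 and 2.21, 2.08 and 2.17 with DMSO, and in OCI-AML3 1.69, 1.76 and 1.78 with MI-503 and 2.67, 2.61 and 2.64 with DMSO. Every treated library lay below every DMSO library of its line. The differences in log2 ratio were -0.81, -0.69 and -0.67 for the combination, AC220 and MI-503 in MV411, -0.43 in MOLM13 and -0.90 in OCI-AML3. With 3 libraries against 3 the two-sided exact permutation test cannot go below p = 0.1, which each of these reached, and over 27 such tests of paralog pairs the adjusted p was 0.117.

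**Figure D4:**
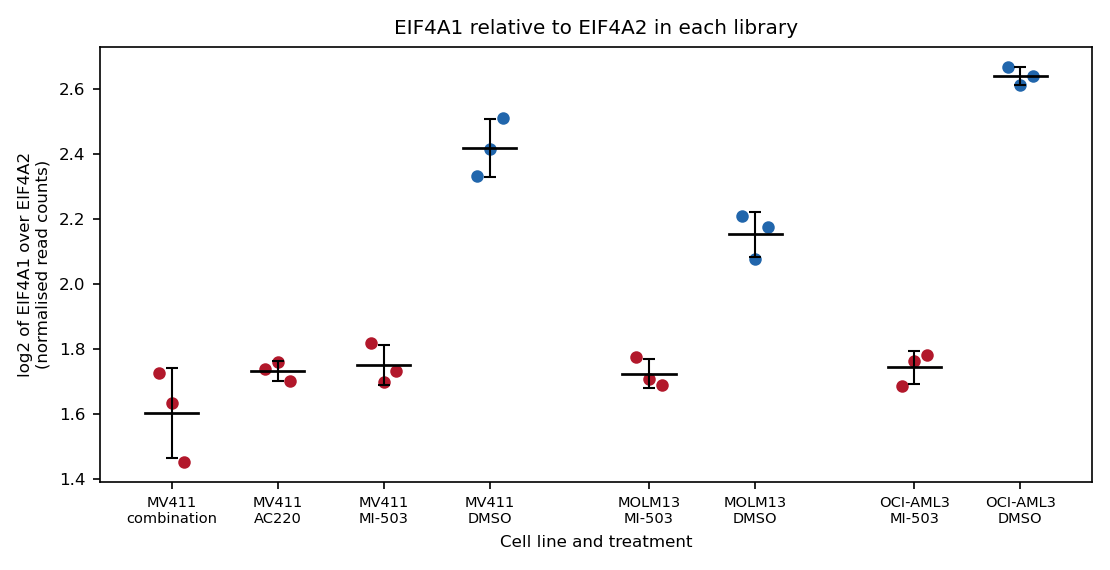
Log2 of the ratio of EIF4A1 to EIF4A2 normalised read counts in each of the 24 libraries, treated groups in red and DMSO in blue; lines are means and whiskers SD of 3 libraries. All 15 treated libraries lie lower than all 9 DMSO libraries, whatever the line.

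For the scaffolds, log2 of EIF4G1 over EIF4G3 was 4.05, 3.91 and 3.95 with the combination and 3.19, 3.08 and 3.09 with AC220, against 2.62, 2.83 and 2.66 with DMSO, differences of 1.26 and 0.41. With MI-503 the difference was 0.06 in MV411 (exact permutation p = 0.4), -0.47 in MOLM13 and 0.16 in OCI-AML3, the last 2 with p = 0.1 by the same exact test. EIF4G1 was thus lower relative to EIF4G3 in MOLM13 alone. EIF4G1 over EIF4G2 moved by between -0.19 in MOLM13 and 0.23 in OCI-AML3. Log2 of EIF4E over EIF4E2 differed from DMSO by -0.84, -0.61 and -0.27 with the combination, AC220 and MI-503 in MV411, by -0.26 in MOLM13 and by -0.11 in OCI-AML3, with no overlap of libraries. For EIF4E over EIF4E3 the difference was 0.98 in MOLM13 and -0.45 in OCI-AML3. EIF1 over EIF1B differed by 0.45 with the combination and 0.40 with AC220 in MV411, and in OCI-AML3 the difference with MI-503 was -0.44. Those in MV411 and MOLM13 with MI-503 were -0.13 and -0.14 (exact permutation p = 0.2 each). None of these ratios can pass a threshold of 0.05 with 3 libraries a group.

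The members with a pyrimidine start, shown at the outset, were mostly higher in MV411, and those with another start mostly lower. With AC220, 8 of the 9 were higher and 0 lower, with a median log2 fold change of 0.44 and a range of 0.067 to 0.61, and by unadjusted p under 0.05 none was lower either. Of the 30 tested members with another start, 0 were higher and 25 lower, with a median of -0.47, and 1 of them, EIF2B2, was higher by unadjusted p under 0.05. The 8 members whose start was not read had 5 higher and 2 lower. Over all genes the difference was smaller. Among all 756 tested genes with such a start 50.7% were higher and 29.1% lower with AC220 (median 0.18), and 47.5% and 31.2% of the 703 that were neither members nor ribosomal protein genes, against 36.5% and 39.4% of the 9396 genes with another start. With the combination, 8 of the 9 were higher and 1 lower (median 0.38), against 5 higher and 23 lower of 30 (-0.54). With MI-503, 7 of the 9 were higher and 1 lower (0.23), against 3 higher and 21 lower of 30 (-0.25). EIF3M, the exception, did not pass with AC220 (0.07 ± 0.04; adjusted p = 0.133) and was lower with the combination and MI-503. The other 8 are EIF2A, EIF2D, EIF2S3, EIF3D, EIF3F, EIF3K, EIF4A2 and EIF4B.

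In the other lines the split was weaker or not seen. In MOLM13, 3 of the 9 were higher and 1 lower (median 0.057), against 2 higher and 20 lower of 31 (-0.18). In OCI-AML3, 3 were higher and 4 lower (-0.015), against 7 higher and 12 lower of 32 (-0.043). The interaction in MV411 was below the sum of the single drugs for 8 of the 9 and above it for 0 (-0.26), against 5 below and 8 above of 30 (0.07). The members are few, the split was noticed with values in view, and no test was made of it. The CACGTG set overlaps the pyrimidine-start set, since EIF3F, EIF3K and EIF4B belong to both. These 3 were the only higher CACGTG holders with AC220 and with MI-503 in MV411. For CACGTG the comparisons differed in which way the sets lay. With AC220 its 11 holders had 3 higher and 7 lower (-0.51), against 5 higher and 18 lower of the 28 others (-0.19), and with the combination 5 higher and 6 lower (-0.22), against 8 and 18 (-0.39). With MI-503 the holders had 3 higher and 6 lower (-0.15), against 7 and 16 (-0.17). The combination over AC220 gave 4 higher and 1 lower (0.03), against 3 and 18 (-0.19). The interaction was above the sum for 5 holders and below it for 3 (0.17), against 3 above and 10 below (-0.06). In OCI-AML3 the holders had 2 higher and 1 lower (0.03), against 8 higher and 15 lower of 30 (-0.12), and in MOLM13 2 higher and 5 lower (-0.03), against 3 and 16 of 29 (-0.14). Of all tested genes, 37.7% were higher and 37.3% lower with AC220, 39.3% and 40.1% with the combination and 29.8% and 30.8% with MI-503. The shares were 27.4% and 28.1% for the combination over AC220 and 20.9% and 21.6% for the interaction. They were 32.8% and 32.8% in OCI-AML3 and 29.8% and 30.1% in MOLM13. Neither the CACGTG sets nor a link to MYC was tested. MYC itself had log2 fold changes of -2.44 ± 0.04, -1.42 ± 0.04 and -0.88 ± 0.04 with the combination, AC220 and MI-503 in MV411, and had -0.18 ± 0.03 in MOLM13 and 0.11 ± 0.04 in OCI-AML3.

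**Figure D5:**
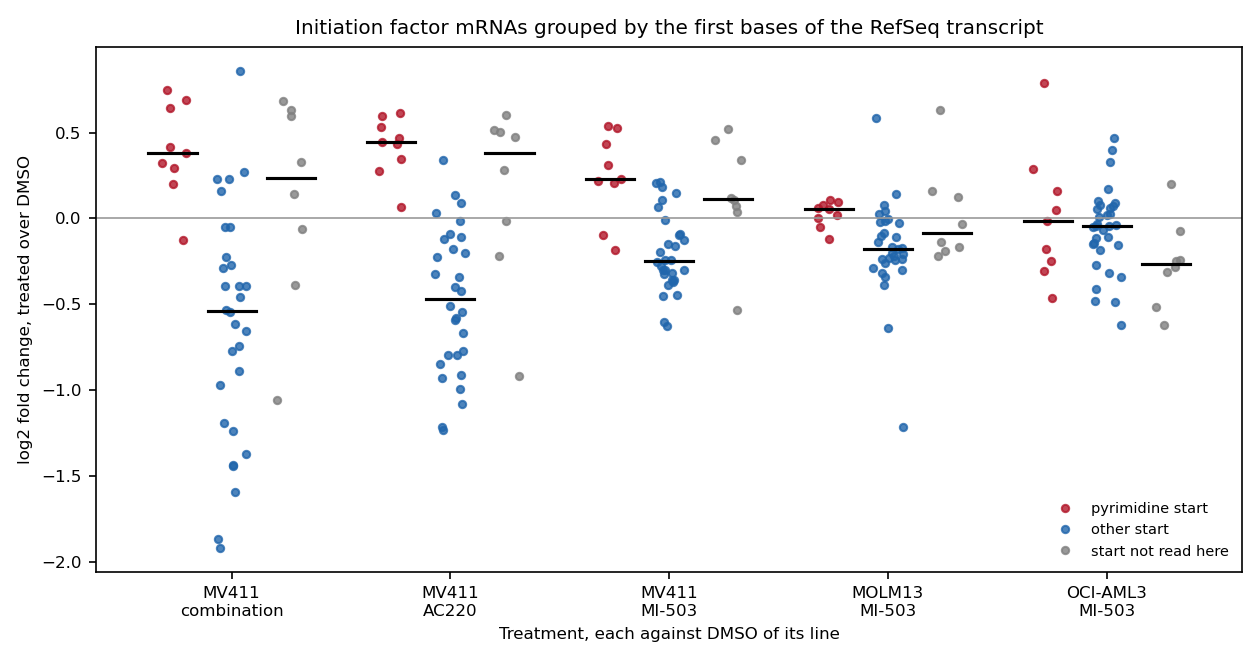
Log2 fold changes of members over DMSO, grouped by the first bases of the RefSeq transcript: C and at least 4 pyrimidines (red), another start (blue) or a start that was not read (grey); points are members and black lines are medians. With AC220 the red points lie at or above 0.067 around a median of 0.44 while the blue median is -0.47; in OCI-AML3 both medians are close to 0.

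Genes that act on the factors were counted in the same way. The lists hold few genes and are described by counts and by the median log2 fold change, which for all genes lay within 0.02 of 0. Of all tested genes, 39.3% were higher and 40.1% lower with the combination, 37.7% and 37.3% with AC220 and 29.8% and 30.8% with MI-503 in MV411. The shares were 29.8% and 30.1% in MOLM13 and 32.8% and 32.8% in OCI-AML3. Several list counts lay near these shares, and whether the lists moved with the factors was not tested. Of 12 genes of cap-binding control and mTORC1, 5 were higher and 6 lower with the combination, 1 higher and 5 lower with AC220, and 4 higher and 6 lower with MI-503 in MV411, while 2 were higher and 7 lower in MOLM13 and 0 higher and 7 lower in OCI-AML3. EIF4EBP1, the repressor that sequesters eIF4E, fell throughout, by 1.47, 1.53 and 0.55 on the log2 scale with the combination, AC220 and MI-503 in MV411, by 0.60 in MOLM13 and by 0.95 in OCI-AML3. PDCD4, an inhibitor of eIF4A, rose with AC220 (0.49 ± 0.05, SE) and in MOLM13 (0.42 ± 0.03) and fell by 0.45 in OCI-AML3. RPS6KB1, an S6 kinase, fell by 0.85 with AC220. The list had medians of -0.07, -0.05 and -0.07 with the combination, AC220 and MI-503 in MV411, -0.13 in MOLM13 and -0.21 in OCI-AML3. LARP1, the mTORC1 effector that binds pyrimidine starts, fell by 0.59 with the combination, by 0.46 with AC220 and by 0.38 in OCI-AML3.

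Of 10 genes of the eIF2 kinases and their stress arm, 3 were higher and 5 lower with the combination, 2 higher and 7 lower with AC220 and 3 higher and 5 lower with MI-503 in MV411, with 4 and 3 in MOLM13 and 4 and 4 in OCI-AML3. These genes had medians of -0.08, -0.19 and -0.20 with the combination, AC220 and MI-503 in MV411, 0.01 in MOLM13 and -0.02 in OCI-AML3. TRIB3, a target of ATF4 and CHOP, fell by 3.46, 4.70 and 2.71 on the log2 scale with the combination, AC220 and MI-503, and by 1.40 in OCI-AML3. EIF2AK4, the amino acid sensor GCN2, rose by 0.76, 0.51 and 0.59 in the same MV411 groups. ATF4 fell by 0.75 with MI-503 in MV411 and by 1.01 in OCI-AML3. Of 6 genes of hypusine or polyamine synthesis, 0 were higher and 5 lower with the combination and 1 higher and 4 lower with AC220. Counts were 0 and 4 with MI-503 in MV411, 0 and 5 in MOLM13, and 4 and 1 in OCI-AML3. The hypusine list had medians of -0.76, -0.87 and -0.23 with the combination, AC220 and MI-503 in MV411, -0.26 in MOLM13 and 0.12 in OCI-AML3. DOHH, which completes hypusine, fell by 1.05, 1.09 and 0.40 in MV411 and by 0.83 in MOLM13. SRM, spermidine synthase, fell by 1.36 with the combination and by 1.12 with AC220, and it rose by 0.29 ± 0.05 in OCI-AML3. ODC1, the first enzyme of the polyamine route, rose with AC220 (0.27 ± 0.05).

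The list of 5 genes for poly(A)-binding proteins and proteins that bind them had 3 higher and 2 lower with the combination in MV411. It had 3 and 1 with AC220 and 3 and 0 with MI-503 in MV411, 1 and 2 in MOLM13 and 1 and 2 in OCI-AML3. No single function is shared by these genes. That list had medians of 0.59, 0.43 and 0.48 with the combination, AC220 and MI-503 in MV411, -0.03 in MOLM13 and 0.0023 in OCI-AML3. PABPC1 rose by 0.60, 0.56 and 0.48 in MV411 and fell by 0.26 in OCI-AML3. The 9 other initiation and recycling factors mostly fell, with 0 higher and 8 lower with the combination, 0 and 7 with AC220, 0 and 8 with MI-503, 1 and 5 in MOLM13 and 0 and 6 in OCI-AML3. They had medians of -0.57, -0.39 and -0.30 with the combination, AC220 and MI-503 in MV411, -0.12 in MOLM13 and -0.12 in OCI-AML3. ABCE1, which splits ribosomes after termination, fell by 1.39, 0.85 and 0.51 in MV411 and by 0.23 in MOLM13. Of the cytosolic elongation and release factors, 5 of 10 were higher and 5 lower with the combination, 5 and 4 with AC220 and 5 and 5 with MI-503, with 2 and 6 of 10 in MOLM13 and 1 and 9 of 11 in OCI-AML3. Elongation and release factors had medians of 0.05, 0.10 and 0.11 with the combination, AC220 and MI-503 in MV411, -0.11 in MOLM13 and -0.26 in OCI-AML3. EEF2, the translocase, rose by 0.73, 0.49 and 0.48 in MV411. Of 9 mitochondrial translation factors, 2 were higher and 7 lower with the combination, 3 and 4 with AC220, 1 and 5 with MI-503, 0 and 7 in MOLM13 and 0 and 5 in OCI-AML3, with medians of -0.33, -0.07 and -0.20 with the combination, AC220 and MI-503 in MV411, -0.30 in MOLM13 and -0.12 in OCI-AML3.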

How the data were processed

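Polyadenylated RNA of 24 libraries was sequenced in paired 50-base reads, with spike-in RNA added in proportion to the number of harvested cells, per the labels' protocols. The deposited values are a normalised signal per gene that the authors made from gene counts with DESeq 2 on hg 38, per the submitters' processing notes; the aligner and the counter are not given in the sources used here. Of the values in each line, 100% were whole reads, within 0.001, divided by 1 factor per library, so reads were recovered. The MV411 factors matched median-of-ratios factors, while those of MOLM13 and OCI-AML3 differed from them; these are taken as spike-in factors only from the name, shared by all 3 deposited tables, and spike-in reads were not analysed here. No per-cell scale is therefore given for MV411. Reads were rescaled here with median-of-ratios factors in all 3 tables, and the deposited scale was kept as an alternative.

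Values were tested as log2(value + 1) with limma 3.58.1 (variance trend) in R 4.3.3, with Benjamini-Hochberg adjustment over all genes that had a value of 10 in 3 libraries, at 0.05. MV411 was 1 fit of 12 libraries and the other lines 1 fit of 6 each. edgeR 4.0.16 and DESeq2 1.42.0 were run on the recovered reads. Other alternatives were pseudocounts of 0.5 and 8, a minimum of 50 or none, TMM factors, a replicate block and leaving out each library; edgeR on the deposited scale and leaving out the OCI-AML3 libraries with HBB reads were chosen after seeing the data. Paralog ratios were tested by a two-sided exact permutation test with scipy 1.17.1. The limma step was tested on simulated data. Depth was 23168887 to 72994481 gene-assigned reads per library. Start windows come from RefSeq on GRCh38.p14; motifs were matched as letters.

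The members and all gene lists were chosen with earlier results of these data known. By rule every member could be named; values of each library were given for EIF4E, EIF4A1, EIF4A2, EIF4G1, EIF4B, EIF2S1, EIF2S2, EIF2B3, EIF3A, EIF3B, EIF3E, EIF5A and EIF6 and for up to 4 called members per direction and comparison whose groups did not overlap. From other pathway lists, up to 3 called genes per list and direction were named.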

Additional observations from a re-analysis of the deposited data

Results flagged for a closer look

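Members whose MI-503 libraries all lay on one side of DMSO in one line and all on the other side in another line, with a call in both, are given here as log2 fold changes on the gene scale. The differences between lines were not tested, and treatment lasted 3 days in MV411 and 4 days in the other lines. Between MV411 and MOLM13, EIF2B5 had 0.18 in MV411 and -0.18 in MOLM13, EIF3G 0.34 and -0.13, and EIF4G3 -0.30 and 0.08. Between MV411 and OCI-AML3 there were 7. The eIF2 and eIF2B mRNAs among them were EIF2B2 with -0.28 in MV411 and 0.47 in OCI-AML3, EIF2B4 with 0.21 and -0.19, and EIF2S3 with 0.22 and -0.46. The eIF3 mRNAs were EIF3D with 0.20 and -0.30, EIF3H with 0.11 and -0.29, and EIF3L with 0.46 and -0.25, and EIF5A had -0.30 and 0.07. Between MOLM13 and OCI-AML3 there were 8, namely EIF2B3 with -0.34 in MOLM13 and 0.33 in OCI-AML3, EIF2B5 with -0.18 and 0.09, EIF3E with 0.16 and -0.24, EIF3I with -0.22 and 0.17, EIF3L with 0.13 and -0.25, EIF4E3 with -1.22 and 0.40, EIF4G3 with 0.081 and -0.27, and EIF5A with -0.29 and 0.07. The shares of all genes with such opposite calls are given in the comparison of the lines. On the deposited scale the MOLM13 values of EIF3E, EIF3L and EIF4G3 were -0.37, -0.40 and -0.45 and passed as lower. In OCI-AML3 only EIF3C and EIF3CL passed on that scale, so no OCI-AML3 call listed here held there. EIF2B5 had -0.071 and EIF5A -0.085 in OCI-AML3 on that scale (limma adjusted p = 0.917 and 0.8997). On the gene scale, the calls of EIF3H in MV411, EIF4G3 in MOLM13 and EIF2B5, EIF4E3 and EIF5A in OCI-AML3 were lost without single libraries.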

How the results depend on the processing

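Of 314 log2 fold changes of members that passed, 275 kept direction and call under every alternative outside the deposited scale, 39 lost the call under at least 1 of them and 0 turned round. Counts of members that passed lay within 1.5 times of those reported under each of those alternatives. With each library left out in turn they were 41 to 43 for the combination, 38 to 40 for AC220 and 34 to 36 for MI-503 against DMSO in MV411, 33 to 39 and 27 to 33 for the combination against MI-503 and against AC220, 31 to 34 for AC220 against MI-503, 23 to 30 for the interaction, 29 to 32 in MOLM13 and 30 to 36 in OCI-AML3. edgeR passed 44, 41 and 37 members for the combination, AC220 and MI-503 in MV411, 34 in MOLM13 and 33 in OCI-AML3, and DESeq2 44, 40, 37, 30 and 31. Same-numbered libraries deviated together, with a correlation over 0.1, in 1 of 24 pairs, so the numbers were not taken to pair them; with a replicate block 44, 40 and 37 members passed in MV411, 34 in MOLM13 and 31 in OCI-AML3, against 44, 40, 37, 32 and 33 without it. Under the block the calls of EIF4ENIF1 with MI-503 in MV411 (adjusted p = 0.0512) and of EIF1AD and EIF5A in OCI-AML3 (0.0712 and 0.0567) did not pass. The deposited scale changed most. In OCI-AML3 it left 2 members by limma and 0 by edgeR, where 8 stood at an unadjusted p under 0.05, and turned EIF1AD (-0.056 by limma and -0.056 by edgeR), EIF2B5 (-0.071 and -0.059), EIF5A (-0.085 and -0.076) and, by limma, EIF2D (-0.00098) to values just under 0, none of which passed. In MOLM13 it turned EIF3E (-0.37 and -0.37), EIF3F (-0.44 and -0.44), EIF3K (-0.46 and -0.46), EIF3L (-0.40 and -0.41), EIF4A2 (-0.42 and -0.42), EIF4ENIF1 (-0.39 and -0.39) and EIF4G3 (-0.45 and -0.45), through the shift of all genes that this scale carries, -0.54 for the median gene. Depth limits members with few reads. EIF4E3 fell under the minimum in MV411 with 0 to 12 reads per library, while it had 516 to 1392 in MOLM13 at similar depth.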
